A study of Mus musculus with 24 samples.

Results

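The proteasome subunit genes are the 37 genes whose symbols begin with Psma, Psmb, Psmc or Psmd followed by a number, that are not the immunoproteasome genes Psmb8 and Psmb9, and whose estimated counts averaged at least 10 over the 24 libraries, out of 55291 gene rows in the count table. They comprise 8 alpha and 9 beta genes of the 20S core particle, 6 ATPase and 11 non-ATPase genes of the 19S cap, and 3 genes of the Psmd series whose products are assembly chaperones (Psmd5, Psmd9 and Psmd10). All 37 passed the filter on low counts in each fit. Just above the limit of 10 stood Psmb11, the thymus form of a catalytic subunit, with a mean count of 14.5, and Psma8, the testis form of an alpha subunit, with 25.2; no symbol of the pattern was left out for a low mean.

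The proteasome degrades proteins that carry ubiquitin chains. Its barrel-shaped core encloses the protease sites between rings of alpha subunits, and the cap binds the chains, removes them and unfolds the substrate with a ring of ATPases. In neurons it takes part in synaptic protein turnover, and its loss of activity has long been studied in Alzheimer's disease.

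RNA came from the hippocampus of 12 mice. The 3 groups of 4 animals were untreated wild-type animals (WT), 5xFAD animals on vehicle alone (5xFAD vehicle), and 5xFAD animals that received MS1262, which the series title describes as an inhibitor of the methylase G9a. The 5xFAD line models familial Alzheimer's disease with mutant human transgenes driven by a neuronal promoter, which act beside the animals' own genes. WT animals had no vehicle, so genotype and vehicle cannot be told apart in any comparison with WT; the labels call the animals age matched and give no age. From each animal 1 library was made from input poly(A) RNA (10% of 150 ng) and 1 from the RNA bound by an antibody to N6-methyladenosine (m6A; IP), by a SMART-seq protocol that names no fragmentation before the IP. The estimated counts summed to 20692611 to 43150054 in the input libraries and to 3984481 to 48597732 in the IP libraries. The smallest IP library, that of 5xFAD vehicle animal 4, stood apart in many of these genes. Several results that rest on it are given with and without it.

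The core and cap genes spanned a wide range of levels in the hippocampus. On the TPM scale, which is per length, the 12-library mean of Psmb6 was 803, the highest of the 37, followed by Psma7 (594), Psmc5 (475), Psmb3 (358) and Psmc1 (347). By role, the median gene had 213 TPM among the alpha genes, 132 among the beta genes, 243 among the ATPases, 60.1 among the non-ATPase genes and 20.9 among the chaperones. The order was not sharp: of 36 pairs of neighbours in it, 31 had ranges over the 12 input libraries that overlapped.

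The protease sites reside in Psmb5 (chymotrypsin-like), Psmb6 (caspase-like) and Psmb7 (trypsin-like), and their input levels differed widely. Psmb6 measured 863, 975, 990.5 and 938 TPM in the WT animals, 739, 755, 868 and 618 in the 5xFAD vehicle animals and 662, 756, 731 and 736 in the 5xFAD MS1262 animals. Psmb7 measured 132, 160.0, 134 and 148 TPM in the WT animals, 129, 142, 138 and 111 in the 5xFAD vehicle animals and 124, 126, 110.0 and 131 in the 5xFAD MS1262 animals. Psmb5 measured 38.9, 51.9, 43.5 and 48.1 TPM in the WT animals, 37.5, 39.5, 41.2 and 40.2 in the 5xFAD vehicle animals and 44.2, 42.9, 37.6 and 48.3 in the 5xFAD MS1262 animals. Every Psmb6 value lay above every Psmb7 value and every Psmb7 value above every Psmb5 value, although the subunits enter the core in equal number. Psmb10, the immunoproteasome counterpart of Psmb7, measured 93.9, 124, 97.9 and 90.3 TPM in the WT animals, 65.9, 84.8, 65.1 and 98.99 in the 5xFAD vehicle animals and 112, 69.6, 51.8 and 69.4 in the 5xFAD MS1262 animals; its range over all animals overlapped that of Psmb7. Low levels were also found for Psmb4 (43.7 to 93.00 TPM), a noncatalytic beta subunit, and above all for Psmd3, a subunit of the lid of the cap, at 1.88 to 3.89 TPM as listed in the deposited table, while the next lowest lid gene, Psmd8, had 29.8 to 44.8. Whether annotation or quantification sets the Psmd3 value was not tested. The tissue-restricted forms were lowest, with Psma8 at 0.227 to 2.80 and Psmb11 at 0.0260 to 0.153 TPM.

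**Figure D1:**
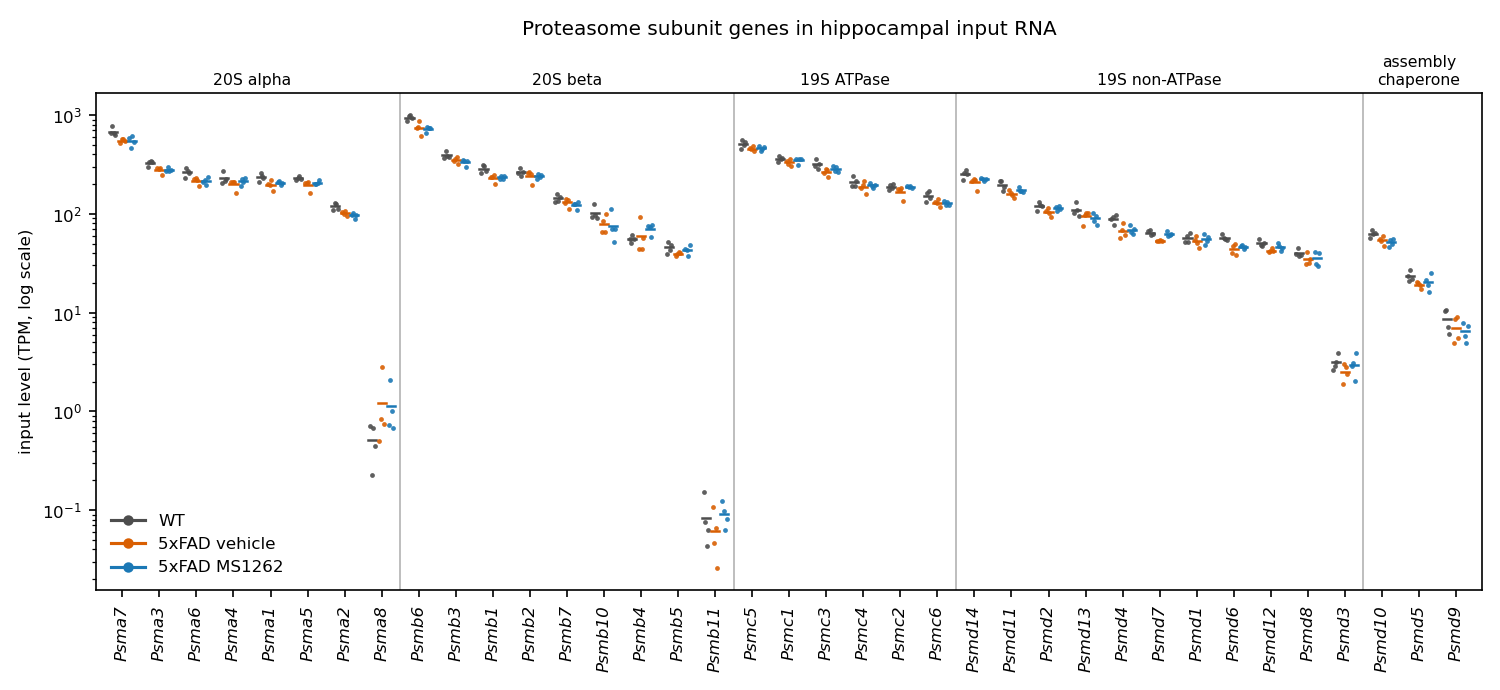
Input level of the 37 genes in TPM on a log axis, 1 point per animal and a bar at each group mean, by role. Psmb6 is highest at 618 to 990.5 TPM, and Psmd3, Psma8 and Psmb11 lie far below the other core and cap genes.

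Transcription of proteasome genes is known to be raised through the antioxidant response element by Nfe2l1 (Nrf1), a factor that the proteasome itself degrades. The promoters are shown because that element is the best known sequence shared by subunit genes. In RefSeq promoters (GRCm38.p6; the 250 bases before each annotated start), found for 30 of the 37 genes, its core TGACNNNGC occurred on either strand in 5 (16.7%), against 11.5% of the 27025 genes with a promoter. The box CCAAT, which shares no base pattern with it, occurred in 12 of 30 (40%) against 37.5% of all genes. A match is a run of letters and not a shown binding site. The stretches below give the motif in capitals, 5′ to 3′ on the strand of the gene.
Psmb5: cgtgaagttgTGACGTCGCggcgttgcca
Psmb6: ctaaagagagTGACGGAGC
Psmc6: ccagccagtaGCTAAGTCAggcattgctc
Psmd9: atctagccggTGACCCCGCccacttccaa
Psmd12: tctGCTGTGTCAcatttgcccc
They lie at chr14:54618024-54618052 (minus strand), chr11:70525338-70525356, chr14:45329587-45329615, chr5:123228149-123228177 and chr11:107479278-107479299 (plus strand). By the starts of the promoter table the motif of Psmb6 ends 1 base before the start and that of Psmb5 39 bases before it. The gene record of Psmb6 begins upstream of that start, at position 70525324, so by it the motif lies inside the gene. In Psmc6 and Psmd12 it reads on the opposite strand.

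Markers of the neurons of the tissue were present in every library. Some markers of microglia and 1 of 3 of interneurons, Sst, differed between WT and 5xFAD animals. In the input, the summed level of 5 microglial genes was 272 to 312 CPM (counts scaled to the size of the library) in WT, 294 to 536 in 5xFAD vehicle and 373 to 471 in 5xFAD MS1262 animals, and 3 genes of activated microglia summed to 1.19 to 1.67, 10.9 to 87.6 and 32.3 to 78.3 CPM; all 3 of these and 3 of the 5 passed the test in both comparisons with WT (edgeR quasi-likelihood test, Benjamini-Hochberg adjusted p under 0.05). Of 3 interneuron genes, Sst was lower in the input, by a log2 fold change of -0.81 ± 0.17 (edgeR adjusted p = 0.0306) to vehicle and -1.11 ± 0.17 (edgeR adjusted p = 0.0048) to MS1262, and higher in IP over input, by 1.24 ± 0.17 (edgeR adjusted p = 0.00481) and 0.97 ± 0.17 (edgeR adjusted p = 0.0116). The other interneuron genes, Gad1 and Gad2, were not called in these comparisons, so Sst does not stand for the interneurons as a whole. Choroid plexus genes summed to 49.1 to 779.8 CPM in WT and 68.4 to 7252 in 5xFAD vehicle animals, the high value coming from vehicle animal 3. The part of these cells in the comparisons with WT given next was not tested, and in whole tissue fewer cells of a type and less RNA per cell cannot be told apart.

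No subunit gene was called in the input between 5xFAD vehicle and WT animals (0 of 37 at an adjusted p under 0.05, edgeR's quasi-likelihood test with Benjamini-Hochberg adjustment over 17693 genes; 1.57% of all genes were called), nor between 5xFAD MS1262 and WT (0 of 37, 1.3% of all genes) or between MS1262 and vehicle (0 of 37, 0% of all genes). At an unadjusted p under 0.05 stood 3, 11 and 1 of the 37, all of them on the low side, and DESeq2 and limma also called 0 in each. Of all genes 12.8%, 14.3% and 5.67% had such a p, so the members' shares of 8.11%, 29.7% and 2.703% exceed it in the comparison of MS1262 with WT and not in the others. The fitted log2 differences were small and mostly negative. From WT to 5xFAD vehicle 29 of 37 were below 0, with a median of -0.082 beside 0.0093 for all genes. From WT to 5xFAD MS1262 30 were below 0, with a median of -0.14 beside -0.00022. Both differences share the WT animals.

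The summed input level of the 37 genes was 7184 ± 450.2 TPM (SD, n = 4) in WT, 6092 ± 458 in 5xFAD vehicle and 6216 ± 115 in 5xFAD MS1262 animals. The lowest WT animal, at 6702 TPM, lay above the highest 5xFAD animal, at 6495. On the CPM scale the sums were 6707 ± 357, 6299.7 ± 221 and 6067 ± 289.7, and WT and vehicle animals overlapped. On log2(TPM + 1) the median of all genes itself lay at -0.089 from WT to vehicle and that of the members at -0.24.

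The genes with the smallest p-values in the input belonged to several roles. Psma3, an alpha subunit, measured 374, 353, 421 and 363 CPM in the WT animals, 329, 294, 306 and 269.9 in the 5xFAD vehicle animals and 279.7, 369.5, 309.8 and 317 in the 5xFAD MS1262 animals. The 5xFAD vehicle values all lay below the WT values, with a log2 fold change of -0.33 ± 0.10 (SE; edgeR adjusted p = 0.136). Psmb6 measured 460.5, 492, 531 and 455 CPM in the WT animals, 430.1, 399.5, 478 and 391 in the 5xFAD vehicle animals and 324, 415, 405 and 400.3 in the 5xFAD MS1262 animals. All MS1262 values lay below the WT values, with a log2 fold change of -0.33 ± 0.10 (edgeR adjusted p = 0.14), while the vehicle values overlapped both.

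Psmd6, a lid subunit, measured 70.6, 61.9, 63.8 and 56.4 CPM in the WT animals, 49.9, 53.1, 58.03 and 51.2 in the 5xFAD vehicle animals and 47.6, 56.4, 50.5 and 53.6 in the 5xFAD MS1262 animals. The WT and MS1262 values did not overlap, though the nearest pair both round to 56.4 CPM, and vehicle animal 3 exceeded the lowest WT animal. The log2 fold changes were -0.25 ± 0.095 to vehicle and -0.28 ± 0.095 to MS1262 (edgeR adjusted p = 0.26 and 0.184). Psmd4, which encodes the ubiquitin receptor Rpn10, measured 92.8, 86.4, 80.3 and 88.6 CPM in the WT animals, 61.1, 64.9, 86.99 and 75.3 in the 5xFAD vehicle animals and 75.6, 71.1, 66.4 and 69.9 in the 5xFAD MS1262 animals, with log2 fold changes of -0.27 ± 0.11 and -0.30 ± 0.11 (edgeR adjusted p = 0.287 and 0.208). Here WT and MS1262 values did not overlap, whereas vehicle animal 3 fell among the WT values.

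Between MS1262 and vehicle the 3 genes with the smallest p-values were all lower under MS1262 and none was called. Psmb7, at 131, 131, 131 and 123 CPM in vehicle and 106, 120.2, 106 and 123 CPM in MS1262 animals, had a log2 fold change of -0.18 ± 0.082 (edgeR adjusted p = 0.863). Psmb3, a noncatalytic beta gene, had -0.16 ± 0.082 and the chaperone Psmd10 (gankyrin) -0.17 ± 0.10, with the edgeR adjusted p at 0.863 and 0.869. MS1262 animal 1 had the lowest input CPM of all 12 animals in Psmb6, Psma6 and Psmd10, and its low CPM was not limited to these genes. Summed over all subunit genes, that animal had 5654 CPM, the lowest of the 12, against 6080 to 6293 in the other MS1262 animals. Its sums of alpha, beta, ATPase and chaperone genes were also the lowest, and that of non-ATPase genes was not. On TPM its sum was the highest of the MS1262 animals, at 6331 against 6109 to 6298. The part of that animal in the median input difference from WT to MS1262 was not tested.

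In the median, the subunit genes varied less between animals of a group than all tested genes. In the input, the SD of log2 CPM over the 4 animals had a median over the 37 genes of 0.118 in WT, 0.103 in vehicle and 0.110 in MS1262 animals, beside 0.228, 0.254 and 0.224 for all tested genes. The 32 highest of the 37 genes had input TPM above that of 86% of tested genes, and the part of level in this smaller spread was not tested. In both 5xFAD groups Psmb10 varied most, with SDs of 0.373 and 0.385.

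The IP libraries gave no call either: 0 of 37 from WT to vehicle (0.537% of 16941 genes were called), 0 of 37 from WT to MS1262 (0.673%) and 0 of 37 from vehicle to MS1262 (0%), by edgeR's quasi-likelihood test and also by DESeq2 and limma. Unadjusted p-values under 0.05 numbered 0, 2 and 0, against 10.9%, 11.4% and 3.54% of all genes. The lowest belonged to Psmd13, a lid subunit, which measured 141, 150.2, 154 and 141 CPM in the WT animals, 132, 117, 135 and 168 in the 5xFAD vehicle animals and 113, 115, 118 and 116 in the 5xFAD MS1262 animals in the IP. All MS1262 values lay below the WT values, while vehicle animal 2 lay among the MS1262 values. The comparison gave log2 fold changes of -0.34 ± 0.12 from WT and -0.25 ± 0.12 from vehicle (edgeR adjusted p = 0.268 and 0.995). Psmb7 was next, with -0.29 ± 0.11 from WT to MS1262 (edgeR adjusted p = 0.345). Psmd7, a lid subunit, pointed the other way, with 0.23 ± 0.11 and an edgeR adjusted p of 0.46.

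From WT to vehicle the genes with the smallest IP p-values were Psmd14, the deubiquitinase of the lid (-0.23 ± 0.11), Psmd4 (0.52 ± 0.25) and Psma6, an alpha subunit (-0.20 ± 0.099), with edgeR adjusted p-values of 0.462, 0.465 and 0.471. Psmc5 and Psmc3, ATPases of the cap, followed Psmd13 from vehicle to MS1262, with -0.27 ± 0.14 and -0.23 ± 0.14 (edgeR adjusted p = 0.995 for both). These values rest in part on vehicle animal 4. With 1 animal left out at a time, Psmd4 ran from 0.11 to 0.67 from WT to vehicle. From vehicle to MS1262 Psmc5 ran from -0.33 to -0.12 and Psmc3 from -0.29 to -0.070. The median IP difference of the beta genes from WT to vehicle was 0.17 with that animal and -0.17 without it, and Psmc3 in its IP measured 554 CPM against 369 to 376 in the other vehicle animals.

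Transcripts of the core particle were depleted by the m6A antibody relative to the average gene, and several of the cap were enriched. Over the 12 animals, with each IP library set against the input of its own animal, 9 of 37 genes were higher in the IP (28.2% of 18300 genes) and 20 lower (27.7% of all genes), at an adjusted p under 0.05 in edgeR's quasi-likelihood test with a term for each animal. The median log2 IP over input was -0.20 for the 37 genes and 0.004 for all genes. On counts the members thus lay lower than a gene in the middle. By role, 7 of 8 alpha genes were lower and 0 higher, with a median of -0.43. Of the 9 beta genes 6 were lower and 1 higher (median -0.44), and of the 6 ATPases 4 were lower and 0 higher (median -0.23). The 11 non-ATPase genes ran the other way, with 6 higher and 2 lower (median 0.15), and of the 3 chaperones 2 were higher and 1 lower.

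These ratios are relative to the other genes, and their zero depends on the scale. On log2(TPM + 1), where the median of all genes lies at 0.31, limma called 27 of the 37 higher and 2 lower. The share of all genes called on this scale is not given, so these counts do not set the members apart. The median of the 37 was 0.36, above that of all genes, so no direction is given for the 37 as a set. Read against the median of all genes, 6 of 8 alpha and 7 of 9 beta genes lay below it on that scale, as 7 and 7 did on counts, and 9 of 11 non-ATPase genes lay above it, as 8 did on counts. The 6 ATPases lay below it on counts and above it on log2(TPM + 1), so no direction is given for them. The directions named below are those on counts.

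Psmb6 and Psmb4 were the most depleted. Log2 IP over input of Psmb6 was -1.03, -1.15, -1.56 and -1.10 in the WT animals, -1.32, -1.33, -1.28 and 0.081 in the 5xFAD vehicle animals and -0.70, -1.14, -1.30 and -1.15 in the 5xFAD MS1262 animals, a mean of -1.08 ± 0.11 (edgeR adjusted p = 1.71e-07). It was below 0 in 11 of 12 animals, the exception being vehicle animal 4. Psmb4 was -0.74, -1.28, -1.54 and -0.72 in the WT animals, -1.38, -1.30, -1.02 and 0.19 in the 5xFAD vehicle animals and -0.83, -1.28, -1.27 and -1.39 in the 5xFAD MS1262 animals, with a mean of -1.05 ± 0.12 (edgeR adjusted p = 7.65e-07) and the same exception. As folds these values are 2.12 and 2.07 lower than the average gene.

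The other depleted genes of the core followed. Psma3 was lower in 12 of 12 animals, with -0.73 ± 0.062 (edgeR adjusted p = 3.50e-08), as was Psma5, with -0.68 ± 0.058 (edgeR adjusted p = 3.12e-08), and Psma2, with -0.61 ± 0.055 (edgeR adjusted p = 7.78e-08). Psma6 stood at -0.51 ± 0.048 and Psmb3 at -0.68 ± 0.084 (edgeR adjusted p = 1.16e-07 and 2.65e-06). On log2(TPM + 1) the sign of Psma3 and Psma6 turned, to 0.026 and 0.13, both under the median of all genes there. Psmb5 and Psmb7, which carry the other protease sites, lay near 0: Psmb7 had -0.12 ± 0.049 (edgeR adjusted p = 0.0459) and Psmb5 -0.17 ± 0.11 (edgeR adjusted p = 0.182), the latter not called and at 1.00 in vehicle animal 4 against 0.021, -0.39, -0.56 and -0.20 in WT.

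Among the non-ATPase genes of the cap, Psmd3 was the most enriched, at 1.01, 0.64, 0.47 and 0.85 in the WT animals, 1.01, 0.62, 0.39 and 1.401 in the 5xFAD vehicle animals and 0.95, 0.57, 1.296 and 0.44 in the 5xFAD MS1262 animals, with a mean of 0.80 ± 0.10 (edgeR adjusted p = 3.02e-06). All 12 animals were above 0, on a level that the deposited table lists as low for a reason that was not tested. Psmd2, the base scaffold that binds ubiquitin shuttles, was 0.31, 0.23, 0.41 and 0.31 in the WT animals, 0.35, 0.41, 0.43 and 0.67 in the 5xFAD vehicle animals and 0.33, 0.41, 0.34 and 0.39 in the 5xFAD MS1262 animals, with 0.38 ± 0.046 (edgeR adjusted p = 2.14e-06), again in 12 of 12 animals. Psmd8, a lid subunit, was 0.13, 0.21, 0.13 and 0.24 in the WT animals, 0.44, 0.43, 0.42 and 0.68 in the 5xFAD vehicle animals and 0.31, 0.60, 0.54 and 0.44 in the 5xFAD MS1262 animals, with 0.38 ± 0.048 (edgeR adjusted p = 3.36e-06), in 12 of 12. Psmd1, the other large scaffold, had 0.22 ± 0.0502 (edgeR adjusted p = 0.00141), and Psmd7 and Psmd6 had 0.19 ± 0.046 and 0.15 ± 0.054. Psmd14 and Psmd11, both of the lid, were lower in 12 of 12 animals, at -0.48 ± 0.048 and -0.44 ± 0.05 (edgeR adjusted p = 2.20e-07 and 8.56e-07), so the lid itself was divided.

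The chaperones of base assembly were divided too. Psmd9 (p27) had 0.66 ± 0.079 (edgeR adjusted p = 1.78e-06) and Psmd5 (S5b) 0.30 ± 0.067 (edgeR adjusted p = 0.000946), each above 0 in 11 of 12 animals, whereas Psmd10 was below 0 in 12 of 12 with -0.56 ± 0.045 (edgeR adjusted p = 1.52e-08); on log2(TPM + 1) Psmd10 stood at 0.073, under the median of all genes. Psmb11 had 1.07 ± 0.37 (edgeR adjusted p = 0.0205) on IP levels of 0.282 to 1.29, and its animals ranged from -0.97 to 2.48. Within the groups the counts were 4 higher and 17 lower in WT (16.8% and 16.2% of all genes), 6 and 17 in vehicle (19.1% and 20.6%), and 7 and 17 in MS1262 animals (20.5% and 17.6%). Without vehicle animal 4 the vehicle group had 8 higher and 20 lower, and the average of the 3 groups 10 higher and 23 lower. The shares of all genes called without that animal are not given, so the rise is not read as a result about the members.

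**Figure D2:**
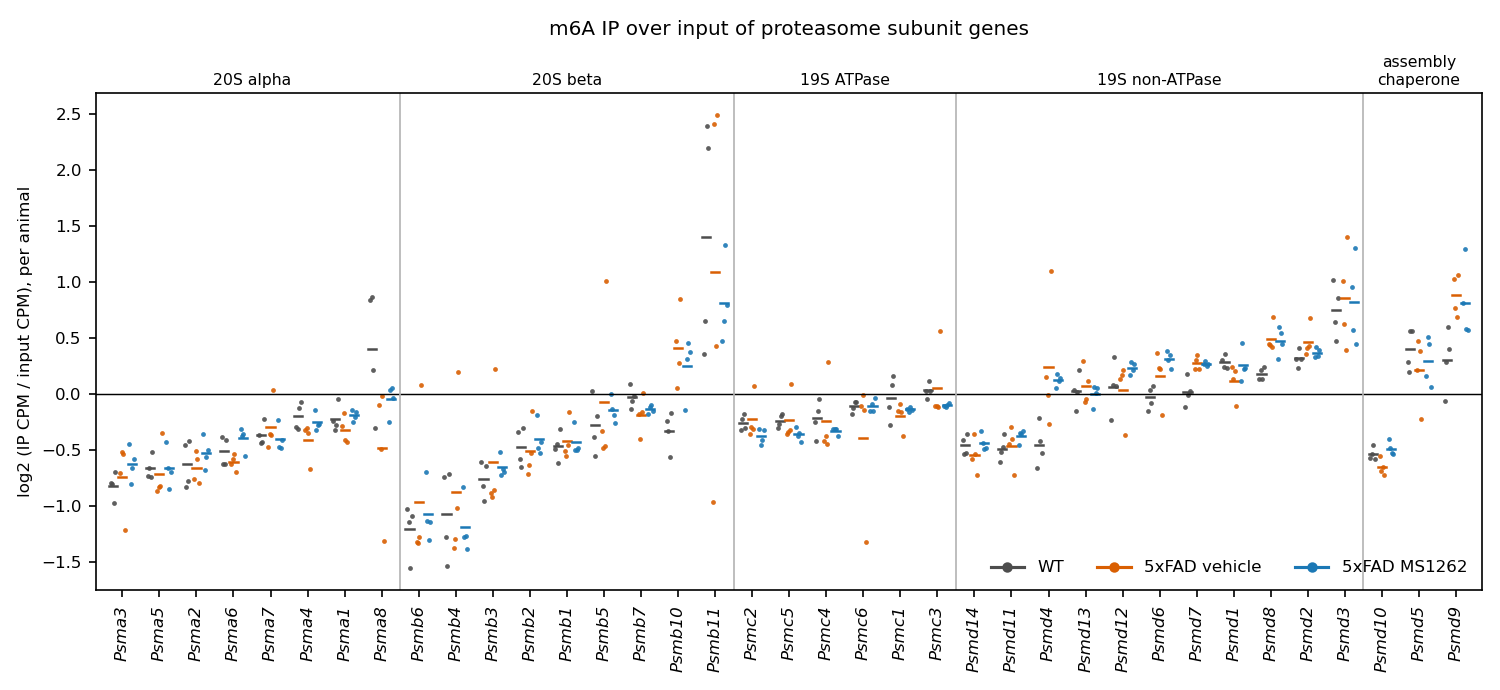
Log2 of IP CPM over input CPM for each animal (points) with group means (bars), by role and in order of the fitted average. Most core genes lie below 0 and most non-ATPase cap genes above it, and single high or low orange points in Psmb6, Psmb5, Psmc3 and Psmc6 are vehicle animal 4.

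Transcript length went with the ratio among these genes. As a measure of length the count per TPM of each gene was divided by the median of all genes, and its Spearman correlation with the average log2 IP over input was 0.53 over the 37 genes, against 0.061 over 18168 tested genes. Genes are not independent replicates, and these share their libraries. The beta genes were short, with a median relative length of 0.242, and Psmd1 and Psmd2 were 1.24 and 0.948. Psmd8, however, had a relative length of 0.503 and Psmd14 0.514, with ratios on opposite sides of 0. The part of length in the ratios was not tested.

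No subunit gene was called for a difference in IP over input between groups: 0 of 37 from WT to vehicle (0.989% of 18300 genes), 0 of 37 from WT to MS1262 (1.24%) and 0 of 37 from vehicle to MS1262 (0%), by edgeR's quasi-likelihood test of the interaction. All genes with an unadjusted p under 0.05 were higher in 5xFAD animals: 5 in the vehicle comparison, 6 in the MS1262 comparison with WT and 0 between the 5xFAD groups. These are 13.5% and 16.2% of the members, near the 11.7% and 11.1% of all genes, of which 1265 were higher and 875 lower to vehicle, and 1432 and 602 to MS1262. The values that follow describe single genes and do not set the members apart. Psmb10, Psmd4, Psmd9, Psmd8 and Psmd7 were in both comparisons with WT, which share the WT animals, and Psmd6 in that of MS1262 alone. DESeq2 called 1 gene, Psmb10, from WT to vehicle and 0 elsewhere, and limma called 0. Of the 37 genes the median difference was 0.024 from WT to vehicle and 0.033 to MS1262, beside -0.055 and -0.0022 for all genes.

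Psmb10 came closest. Its log2 IP over input was -0.25, -0.33, -0.57 and -0.17 in the WT animals, 0.47, 0.047, 0.28 and 0.85 in the 5xFAD vehicle animals and -0.14, 0.31, 0.45 and 0.37 in the 5xFAD MS1262 animals. All 4 WT animals were below 0 and below every 5xFAD animal, and MS1262 animal 1 was the only 5xFAD animal below 0. The difference from WT was 0.74 ± 0.18 to vehicle and 0.57 ± 0.17 to MS1262 (edgeR adjusted p = 0.0591 and 0.146). Over the alternatives the adjusted p of the vehicle difference ran from 0.00149 to 0.842 and its size from 0.60 to 0.86. Without vehicle animal 4 it was 0.60 ± 0.14 with an edgeR adjusted p of 0.0331, and without vehicle animal 2 it also passed the threshold, at 0.0369.

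The levels behind the Psmb10 ratio were as follows. Its input measured 51.7, 64.5, 49.5 and 40.05 CPM in the WT animals, 32.4, 34.8, 35.4 and 57.4 in the 5xFAD vehicle animals and 52.9, 30.8, 29.03 and 35.4 in the 5xFAD MS1262 animals, with log2 fold changes of -0.36 ± 0.22 to vehicle and -0.47 ± 0.22 to MS1262 (edgeR adjusted p = 0.526 and 0.338). Its IP measured 51.5, 61.9, 39.5 and 41.8 CPM in the WT animals, 53.7, 42.9, 51.4 and 124 in the 5xFAD vehicle animals and 55.6, 45.2, 46.9 and 53.9 in the 5xFAD MS1262 animals. The input values were lower in 3 of 4 animals of each 5xFAD group than in any WT animal, and the IP values overlapped between the groups. The immunoproteasome replaces catalytic subunits in immune cells and in inflamed tissue, and the microglial genes given above were higher in the same 5xFAD animals; whether Psmb10 follows them was not tested.

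Psmd4 was -0.66, -0.21, -0.43 and -0.53 in the WT animals, 0.15, -0.011, -0.27 and 1.09 in the 5xFAD vehicle animals and 0.046, 0.17, 0.11 and 0.14 in the 5xFAD MS1262 animals in log2 IP over input, a difference from WT of 0.69 ± 0.22 to vehicle and 0.58 ± 0.21 to MS1262 (edgeR adjusted p = 0.18 and 0.278). The MS1262 animals all lay above WT, vehicle animal 3 fell among the WT values, and vehicle animal 4 was far above every other. Without vehicle animal 4 the first difference was 0.42 ± 0.11 (edgeR adjusted p = 0.0665). Psmd9 was -0.063, 0.28, 0.60 and 0.40 in the WT animals, 1.02, 0.77, 0.68 and 1.06 in the 5xFAD vehicle animals and 0.81, 1.29, 0.58 and 0.57 in the 5xFAD MS1262 animals, a difference of 0.58 ± 0.19 to vehicle and 0.50 ± 0.19 to MS1262 (edgeR adjusted p = 0.215 and 0.296). Its vehicle animals all exceeded WT, and 2 MS1262 animals fell just under the highest WT animal.

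The lid genes Psmd8, Psmd7 and Psmd6 had smaller differences, none of which passed the test. Psmd8, whose values stand above, did not overlap between WT and either 5xFAD group, with 0.31 ± 0.12 to vehicle and 0.29 ± 0.12 to MS1262 (edgeR adjusted p = 0.306 and 0.333). Psmd7 was -0.12, 0.17, -0.0099 and 0.0203 in the WT animals, 0.22, 0.30, 0.35 and 0.22 in the 5xFAD vehicle animals and 0.26, 0.29, 0.25 and 0.26 in the 5xFAD MS1262 animals, a difference of 0.26 ± 0.11 to vehicle and 0.25 ± 0.11 to MS1262 (edgeR adjusted p = 0.38 and 0.411). Its 8 5xFAD animals lay in a narrow range above all WT animals. Psmd6 was -0.16, 0.037, -0.084 and 0.071 in the WT animals, 0.36, 0.23, 0.22 and -0.19 in the 5xFAD vehicle animals and 0.38, 0.30, 0.34 and 0.22 in the 5xFAD MS1262 animals, a difference of 0.20 ± 0.13 to vehicle and 0.34 ± 0.13 to MS1262 (edgeR adjusted p = 0.581 and 0.292). In Psmd6 vehicle animal 4 was the lowest of the 12; without it the vehicle difference was 0.30 ± 0.094 (edgeR adjusted p = 0.111).

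Between vehicle and MS1262 animals the smallest p-values missed 0.05 before adjustment too. Psma6 had a difference of 0.21 ± 0.12, Psmd10 of 0.16 ± 0.11 and Psmc6, an ATPase, of 0.27 ± 0.21, with unadjusted p-values of 0.09, 0.158 and 0.223 in edgeR's test and an adjusted p of 1 for each. Psmc6 rested on vehicle animal 4, at -1.33 against -0.15 to -0.013 in the other vehicle animals, and without it the difference turned to -0.0204.

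**Figure D3:**
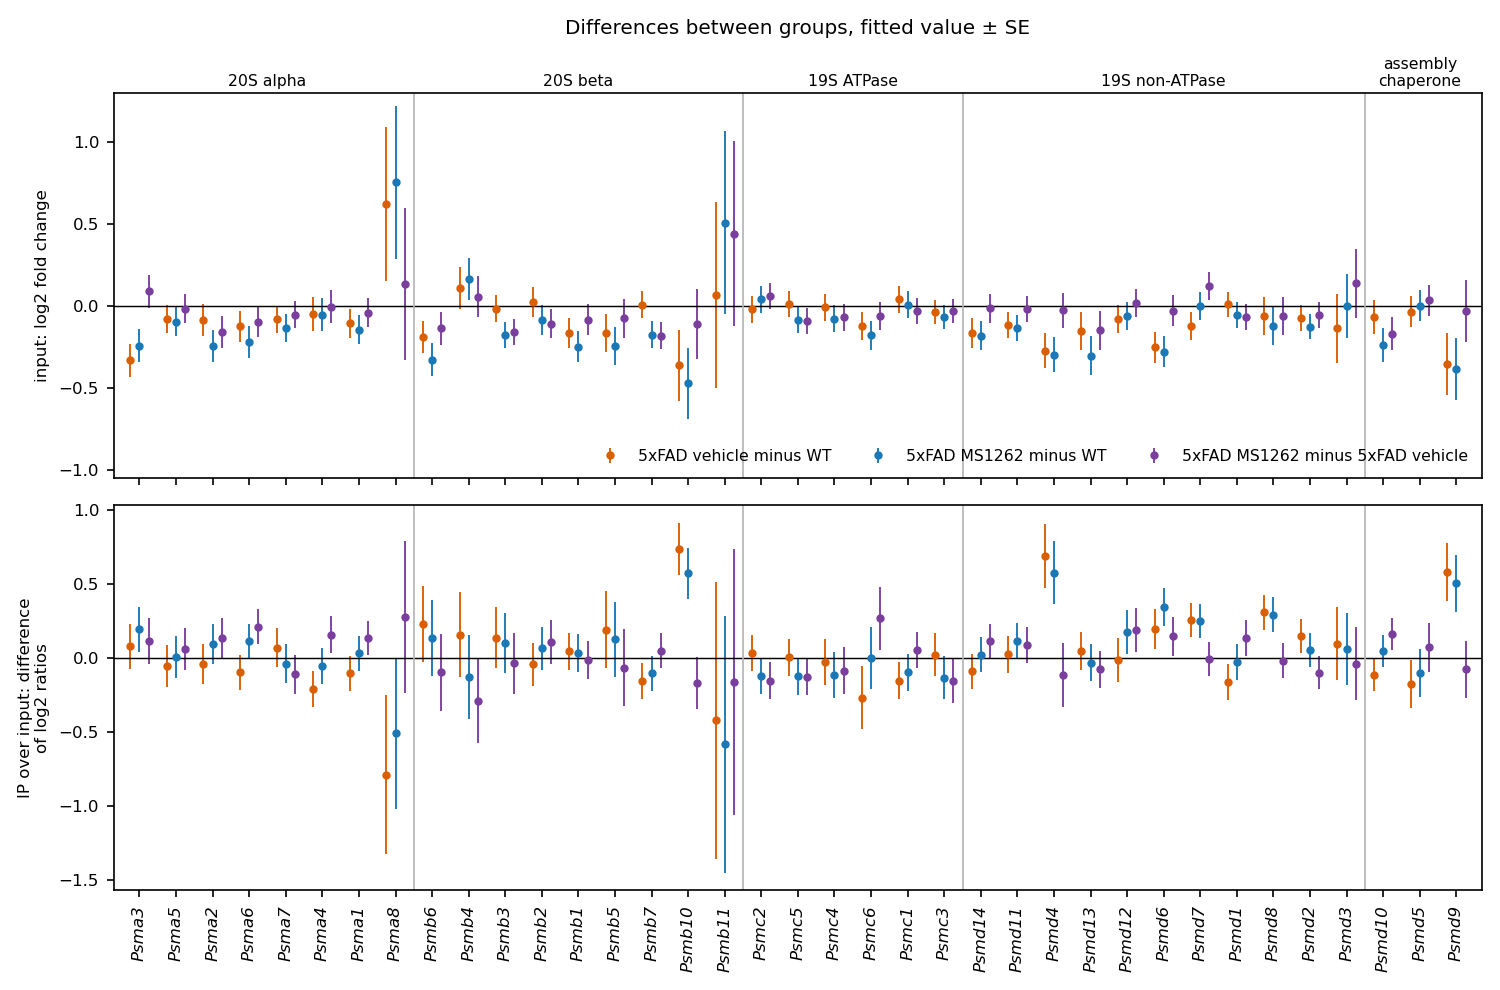
Fitted log2 differences between groups (points) with SE (bars) for the input (top) and for IP over input (bottom), with the genes by role. Input differences sit mostly a little below 0, and Psmb10, Psmd4 and Psmd9 have the largest positive differences of IP over input from WT among the 37 genes; none passed the test.

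The deposited peak lists mark where along a gene the IP exceeded the input of the same animal. Peaks were called in each animal separately at a lenient q of 0.5, and their fold enrichments are the authors' values. A peak overlapped the gene in at least 1 animal for 26 of the 37 genes (70.3%; 34.7% of the 16881 tested genes with coordinates) and in at least 3 of 4 animals of some group for 10 (27.03%; 17% of all). These 10 were 6 non-ATPase genes (Psmd1, Psmd2, Psmd6, Psmd7, Psmd8 and Psmd12), the ATPases Psmc3 and Psmc5, the beta gene Psmb10 and the chaperone Psmd5, and none was an alpha gene. The 32 highest of the 37 genes had input TPM above that of 86% of tested genes. The part of level in the shares with a peak was not tested. Several of the 26 had a peak in vehicle animal 4 alone, as given below, and the shares are not given without that animal.

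Psmd2 had peaks in 12 of 12 animals and Psmd1 in 11 of 12, all but vehicle animal 4. In Psmd1 a summit at chr1:86071778-86071833 (mm10), 7159 to 7214 bases from the gene start, was present in 10 animals at 2.50- to 5.42-fold enrichment. In Psmd2 a summit at chr16:20652535-20652640 was present in 11 animals at 1.69- to 2.68-fold. Psmc3 had a peak in 10 of 12 animals, mostly weak: its main summit reached 2.24-fold at most, with a median of 1.21-fold over 9 animals. Peaks in at least 3 of 4 animals of every group were found for these 3 genes (8.11%; 7.14% of all genes).

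Psmd8, Psmd7 and Psmd6 had peaks in 5xFAD animals and in 0 of 4 WT animals. Psmd8 had one in 4 of 4 vehicle and 4 of 4 MS1262 animals, Psmd6 in 3 and 4, and Psmd7 in 3 and 3. With at least 3 of 4 animals of both 5xFAD groups and no WT animal, these 3 genes made 8.11% of the 37 against 0.859% of all genes, and 11.5% of the 26 with any peak against 2.47% of the 5866 genes with any. The opposite pattern, at least 3 WT animals and no vehicle animal, was found in 0 of the 37 and 0.124% of all genes, and with no MS1262 animal in 0 of the 37 and 0.367%. Psmb10 would join them but for 1 weak summit in WT animal 4, at 1.41-fold; it had peaks in 8 of 8 5xFAD animals, and at a deposited q of at most 0.05 it had none in WT. At that q Psmc3 kept peaks in 3 WT animals, 1 vehicle animal and 0 MS1262 animals, which puts 1 of the 37 in the opposite pattern for MS1262 and leaves 2, Psmd1 and Psmd2, with peaks in at least 3 animals of every group.

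The strongest Psmd8 summit lay at chr7:29180291-29180314 (mm10; the gene spans chr7:29174187-29180673, minus strand), 359 to 382 bases from the gene start. It was found in 7 of 8 5xFAD animals, the exception being vehicle animal 2, at 2.41- to 4.23-fold. The summits of the 7 animals fell within 23 bases of each other. In Psmd7 (chr8:107580380-107588482) a summit at chr8:107588265-107588287, 195 to 217 bases from the high-coordinate end of the gene, was found in 5 of 8 5xFAD animals at 2.57- to 3.33-fold. Psmd6 (chr14:14112185-14120945, minus strand) was less uniform: its most shared summit, 875 to 972 bases from the start, was in 5 animals at 1.49- to 2.45-fold, and vehicle animal 3 had only a summit near the far end.

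In Psmb10 (chr8:105935728-105938392, minus strand) the main summit lay 862 to 950 bases from the start in 9 animals, at 1.41- to 3.62-fold, and a further one 427 to 488 bases from the start in 3 vehicle and 3 MS1262 animals. No other annotated gene overlapped the summits in Psmd8, Psmd7, Psmd6 or Psmb10. Lists of WT animals held 6325 to 8456 summits in all, those of vehicle animals 6182 to 10750 and those of MS1262 animals 7138 to 10364. The part of list size and depth in these peaks was not tested. The edgeR differences of these genes, given above, did not pass the threshold, so the presence of a peak is a description of the lists.

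Vehicle animal 4 carried peaks in 20 of the 37 genes, against 4 to 12 in the other animals. Psma1, Psma5, Psma7, Psmb1, Psmb3, Psmb6 and Psmd4 had a peak in that animal alone. Its IP library had 8594986 tags, the fewest of the 12, beside 49345601 input tags, and the part of its depth in these peaks was not tested. Without it Psmd8 still had peaks in 7 5xFAD animals, Psmb10 in 7, Psmd6 in 7 and Psmd7 in 5.

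**Figure D4:**
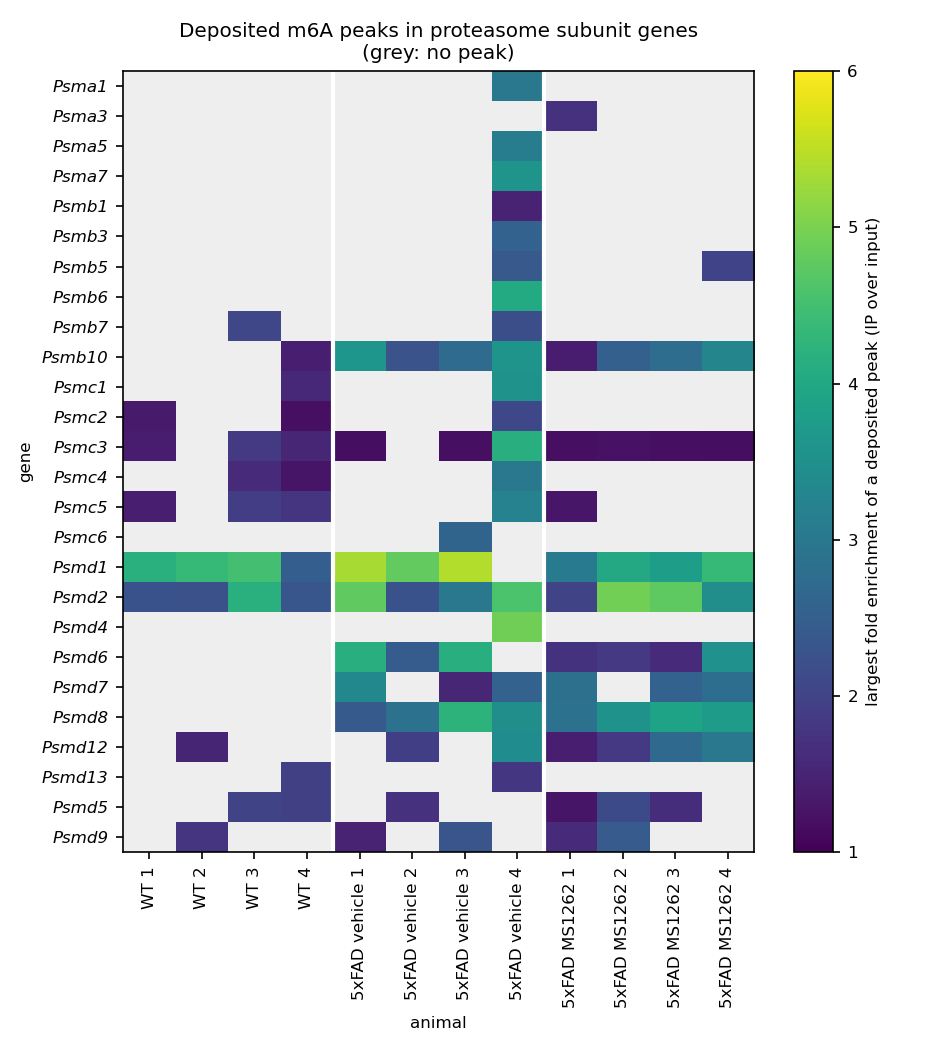
Genes with a deposited peak (rows) by animal (columns); colour gives the largest fold enrichment of IP over input and grey means no peak. Psmd1 and Psmd2 are marked in nearly all animals, Psmd6, Psmd7 and Psmd8 in 5xFAD animals only, and many core genes only in vehicle animal 4.

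**Figure D5:**
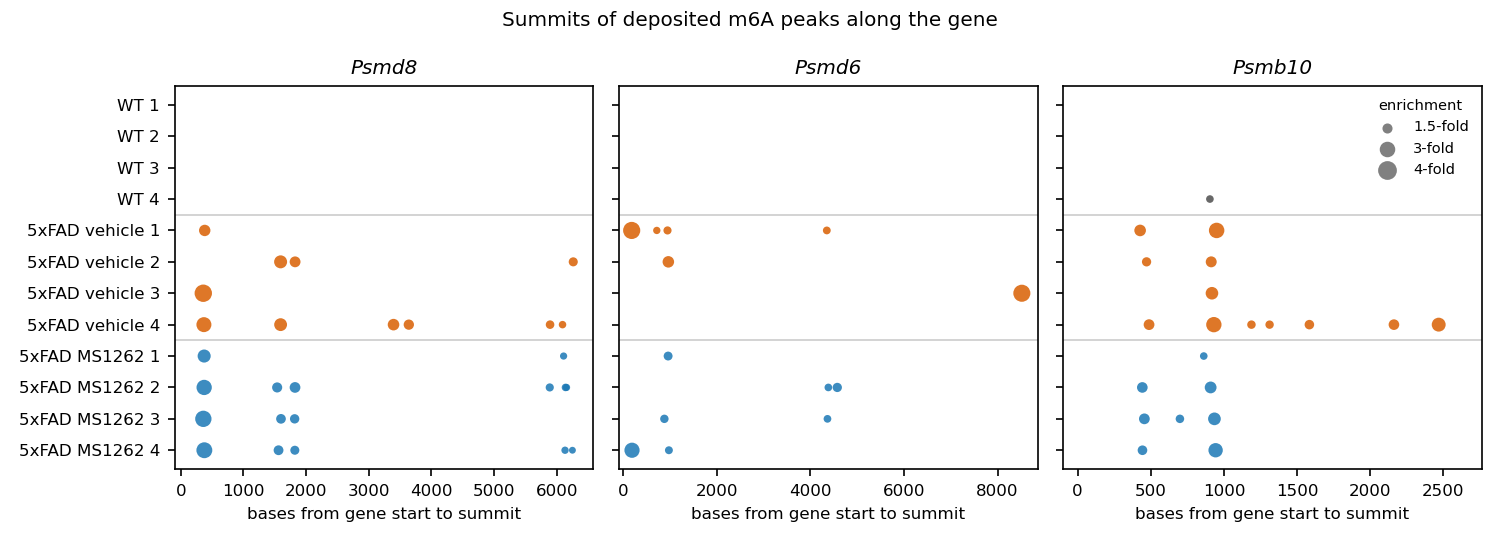
Distance in bases from the gene start to each deposited summit (horizontal) in each animal (vertical), for Psmd8, Psmd6 and Psmb10, with point size by fold enrichment. The Psmd8 summits at 359 to 382 bases and the Psmb10 summits at 862 to 950 bases recur across 5xFAD animals, and WT rows are empty but for 1 small Psmb10 point.

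Of 34 genes that serve the proteasome, 1 was called between groups, in IP over input from WT to MS1262. In that comparison 1.24% of all genes were called, and the single call does not set the 34 apart. Nfe2l1, the factor named above, was 0.55, 0.84, 1.01 and 0.73 in the WT animals, 1.49, 1.55, 1.12 and 1.48 in the 5xFAD vehicle animals and 1.54, 1.45, 1.57 and 1.16 in the 5xFAD MS1262 animals in log2 IP over input, and every 5xFAD animal exceeded every WT animal. The difference was 0.65 ± 0.15 from WT to MS1262 (edgeR adjusted p = 0.0444) and 0.63 ± 0.15 from WT to vehicle (edgeR adjusted p = 0.0659). The first passed the threshold in 3 of 14 alternatives and the second in 4 of 14. Over all 14 alternatives, passing or not, the first ran from 0.58 to 0.75. Its input was 20.1, 15.3, 14.8 and 14.9 CPM in the WT animals, 12.3, 10.8, 15.4 and 16.1 in the 5xFAD vehicle animals and 16.4, 14.2, 11.96 and 15.3 in the 5xFAD MS1262 animals and did not pass the test (log2 fold change -0.17 ± 0.16 to MS1262, edgeR adjusted p = 0.691).

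Psmb8 and Psmb9, the immunoproteasome genes that are not among the 37, were low. Psmb8 measured 1.301, 0.605, 0.439 and 1.15 CPM in the WT animals, 1.65, 1.83, 1.26 and 2.96 in the 5xFAD vehicle animals and 1.71, 1.58, 1.46 and 2.12 in the 5xFAD MS1262 animals in the input, with log2 fold changes of 1.13 ± 0.37 to vehicle and 0.96 ± 0.37 to MS1262 that were not called (edgeR adjusted p = 0.183 and 0.246). Psmb9 had 0.49 ± 0.35 and 0.56 ± 0.35 (edgeR adjusted p = 0.616 and 0.498). The third immunoproteasome gene, Psmb10, had input differences of the opposite sign, none of them called.

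In IP over input over all 12 animals, 9 of the 34 were higher and 16 lower, beside 28.2% and 27.7% of all genes. The core assembly factors Pomp (-0.79 ± 0.053), Psmg1 (-1.20 ± 0.17), Psmg2 (-0.40 ± 0.061) and Psmg4 (-1.08 ± 0.19) were lower and Psmg3 (0.47 ± 0.0895) higher. Ubb and Rps27a, which encode ubiquitin, were lower, at -0.79 ± 0.11 and -0.80 ± 0.081. Psme1 and Psme2, which encode partners of 1 activator ring, stood at 0.23 ± 0.055 and -0.85 ± 0.059. Nfe2l1 was at 1.21 ± 0.063 and Adrm1, the ubiquitin receptor Rpn13 of the cap, at 0.58 ± 0.093. All of these passed edgeR's test, with adjusted p-values of 0.000136 or less for the assembly factors other than Psmg3 and of 0.00157 or less for the rest.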

How the data were processed

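m6A immunoprecipitation followed by sequencing was analysed in 24 libraries (12 mouse hippocampi, 3 groups of 4, input and IP of each animal). The authors deposited estimated counts per gene and TPM per gene, and MACS2 peak lists for each animal. Per the submitters' processing notes peaks came from MACS2 2.1.2 and counts from Salmon 1.4.0, and STAR 2.7.6a and Trimmomatic 0.32 are also named, with builds mm10 and GRCm38. Per the file headers, each IP was set against its own input at a q of 0.5 with an extension of 200 bases, and the deposited peaks carry a fold enrichment (a ratio), a pileup signal and a −log10 q-value. A file that stops at a lenient q holds many weak peaks.

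The estimated counts, as deposited, were rounded to whole numbers (22.1% of the nonzero values were not whole). edgeR 4.0.16 (R 4.3.3) filtered genes by group at a minimum count of 10, scaled libraries by TMM and ran the quasi-likelihood test with Benjamini-Hochberg adjustment over all tested genes; a gene was called at an adjusted p under 0.05. Input and IP were fitted over the 3 groups. IP over input was fitted with a term per animal and an interaction with group, since input and IP of 1 animal come from the same tissue (they correlated best with each other in 12 of 12 animals). The same numbers in different groups did not pair animals. CPM used the same scaling, and log2 ratios for single animals a prior count of 0.5. A peak belonged to a gene when they shared at least 1 base, and summits within 100 bases were joined into a site. Gene positions and promoters were RefSeq's (GRCm38.p6).

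Alternatives were DESeq2 1.42.0 and its size factors, no filter, limma 3.58.1 on log2(TPM + 1) and log2(TPM + 0.1), fits with and without the replicate block, and leaving out each animal. Tables were joined with Python 3.11.15, pandas 2.3.3 and numpy 2.4.6, and the fits were tested on simulated data with 200 changed genes. The genes and lists were chosen with earlier results of these data known. Named in each comparison were called genes, up to the 8 largest in each direction, or the 3 smallest p-values where fewer than 3 were called; the protease subunits and Psmb10 were named throughout, and other genes given with values were chosen after these were seen. The labels call the samples biological replicates, and intervals of counting error are not given. Results for some related genes are not reported here.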

Additional observations from a re-analysis of the deposited data

Results flagged for a closer look

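In 18 of 153 groups of 4 values, over 17 genes, 1 animal lay far from the other 3 by Dixon's criterion; chance gives about 1 in 20 groups. Vehicle animal 4, whose IP library was the smallest, accounts for most of them. In the IP it measured 139.9 CPM for Psma3, 279 for Psmb3, 56.5 for Psmb5, 554 for Psmc3, 105 for Psmc6 and 193 for Psmd4. Its log2 IP over input was 0.22 for Psmb3, 1.00 for Psmb5, 0.081 for Psmb6, 0.56 for Psmc3, 0.089 for Psmc5 and -1.33 for Psmc6. Psmc6 was the only 1 of these 6 on the low side. Its input stood apart for Psmb10, at 57.4 CPM, and Psmb7, at 123 CPM.

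The other values that stood apart were the input of Psma6 in vehicle animal 1, at 192 CPM, of Psmc6 in vehicle animal 2, at 195 CPM, and of Psmb6 in MS1262 animal 1, at 324 CPM, and the IP of Psmd4 in WT animal 2, at 90.2 CPM.

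The effect of the IP on Nfe2l1 passed the test of the difference between groups in the main fit. Log2 IP over input was 0.65 higher in MS1262 than in WT animals (edgeR adjusted p = 0.0444). This difference passed the threshold in 3 of 14 alternatives.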

How the results depend on the processing

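In the input and in the IP, 0 of the 37 genes were called under every alternative run. On log2(TPM + 1), limma called 27 higher and 2 lower for IP over input over all animals, 19 and 2 in WT, 22 and 0 in vehicle and 19 and 1 in MS1262 animals; on log2(TPM + 0.1) it called 27 and 2, 19 and 2, 23 and 0, and 20 and 1. The zero of that scale lies under the median of all genes, and no other cause was tested. The shares of all genes called on these scales are not given, so the counts do not set the members apart. Signs turned there, with the 2 pseudocounts in this order: over all animals Psma3 to 0.026 and 0.026, Psmd10 to 0.073 and 0.074, and Psma6 to 0.13 and 0.14; in WT Psmd10 to 0.038 and 0.038 and Psma6 to 0.0505 and 0.051; in vehicle Psma5 to 0.0033 and 0.0034, Psmd10 to 0.064 and 0.065, Psmb3 to 0.11 and 0.11, and Psma6 to 0.14 and 0.14; in MS1262 Psma3 to 0.14 and 0.14, Psmd10 to 0.12 and 0.12, and Psmd14 to 0.11 and 0.11. For the difference of IP over input from WT to vehicle, DESeq2 called 1 gene and the fit without a low-count filter 2 (from WT to MS1262 also 2). The cause was not tested, and the shares of all genes called in these fits are not given. At a deposited q of at most 0.05, 1 gene (Psmc3) had peaks in at least 3 WT and no MS1262 animals, against 0 with all peaks.

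Leaving out 1 animal at a time gave 7 to 10 genes higher and 18 to 23 lower over all animals, 2 to 4 and 13 to 14 in WT, 5 to 8 and 14 to 20 in vehicle, and 5 to 8 and 15 to 16 in MS1262 animals. The 2 came without WT animal 3 and without WT animal 4. From WT to vehicle 0 to 1 were called, the 1 being Psmb10 without vehicle animal 2 or 4. The shares of all genes called with an animal left out are not given, so these counts do not set the members apart. The Psmc6 difference between MS1262 and vehicle ran from -0.0204 (without vehicle animal 4) to 0.40.

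Same-numbered animals of different groups did not deviate together (median correlation -0.0148 in the input and -0.0285 in the IP). With the replicate block, 0 genes were called in the input and in the IP. Without the block for the animal, IP over input gave 8 higher and 18 lower over all animals, and 0 differences between groups. The shares of all genes called in that fit are not given either.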
